A study of Mus musculus with 16 samples.

Results

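MicroRNAs (miRNAs) were compared between livers that had lost beta-catenin in hepatocytes and wild-type livers, in mice that had received no phenobarbital. The comparison covered all 611 mouse miRNA features of an array that carried 650 features in all, the other 39 being viral miRNAs, and used 8 of the study's 16 arrays. The 4 CTNNB1KO control arrays came from male C3H/He mice in which Cre recombinase, driven by the albumin promoter that is active in hepatocytes, acted on loxP sites placed in the introns flanking exons 3 and 6 of Ctnnb1. The 4 WT control arrays came from male wild-type C3H mice, and whether these carried Cre or a floxed allele is not given in the labels. Both parent lines had been backcrossed for 5 generations to C3H/N. Control mice received 0% phenobarbital for 12 weeks, which the sample labels describe as a water vehicle and the treatment protocol as a diet free of the drug, and their age is not stated. The remaining arrays, 4 of CTNNB1KO and 4 of WT mice given 0.05% phenobarbital in the diet for 12 weeks, entered the estimate of spread and a side-by-side comparison at the end. Whether each array stands for its own animal is not stated, and the p-values therefore reflect the scatter of these samples, which may be partly technical.

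Beta-catenin, the product of Ctnnb1, is the co-activator through which Wnt ligands switch on target genes, and in adult liver it maintains the gene programme of the hepatocytes around the central vein. A miRNA is a short RNA that guides Argonaute proteins to messenger RNAs, mainly through its seed, bases 2 to 8 from the 5′ end. miRNAs that share a seed have overlapping sets of targets, and miRNAs cut from 1 primary transcript are made together. Because Cre acted only where albumin is expressed, blood cells, endothelium, stellate cells and leukocytes of the knockout livers kept their Ctnnb1 gene.

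The values are deposited log2 intensities, so a difference of 1 is a doubling, and differences are always CTNNB1KO minus WT. The viral miRNAs served to set a dim floor, the 0.95 quantile of their mean values, at 3.98. Of the 611 mouse miRNAs, 123 had a mean above this floor in at least 1 control group (120 in CTNNB1KO and 115 in WT) and 488 did not. Single arrays had 117 to 123 miRNAs above it in CTNNB1KO and 114 to 118 in WT. Ctnnb1 mRNA is not measured by a miRNA array, and the knockout could not be checked here. The tissue label could be checked: miR-122, the most abundant miRNA of hepatocytes, was the brightest feature, at 15.07 to 15.22 in CTNNB1KO and 15.28 on each of the 4 WT arrays. No striated muscle marker (0 of 8) was above the floor in these 8 arrays.

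One array stood apart from the rest. CTNNB1KO replicate 2 correlated with the other control arrays at 0.963 to 0.983 across miRNAs, the lowest being with WT replicate 4. It was the highest or lowest of its group for 98 of the 123 miRNAs above the floor. That count was 45, 68 and 35 for CTNNB1KO replicates 1, 3 and 4, and 70, 45, 52 and 77 for WT replicates 1 to 4. For 44 of the 123, CTNNB1KO replicate 2 lay more than 0.5 from the mean of the other 3 CTNNB1KO arrays, against 13, 24 and 10 for replicates 1, 3 and 4. It was higher by 2.94 for miR-34a, by 2.11 for the leukocyte miRNA miR-142-3p and by 1.39 for miR-21, and its deviation was -1.25 for miR-31, -1.14 for miR-802 and -1.10 for miR-19b. CTNNB1KO replicate 3 carried its own excess of miR-494 (2.60) and miR-1224 (1.52). The median SD of the 123 miRNAs was 0.247 in CTNNB1KO, 0.160 without replicate 2, and 0.141 in WT. Passed calls, and differences or medians described here that moved by over 1.5 times without replicate 2, are therefore given with and without it. Replicate 2 was singled out by these same values, those of miR-34a, miR-31 and miR-802 among them. The adjusted p-values without it are not independent of that choice.

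The test was passed by 5 miRNAs (limma, Benjamini-Hochberg adjusted p under 0.05 over 611 miRNAs), which is 5 of 611 or 0.818%. miR-34a and miR-31* rose in CTNNB1KO (2, or 0.327%), and miR-451, miR-144 and miR-25 fell (3, or 0.491%). The mature strands of these 5 are shown with their seed in capitals, because the families and clusters described afterwards are defined by these letters and positions. Sequences and positions are those of RefSeq on GRCm38.p6, in which the array's miR-31* and miR-31 are the 3p and 5p arms of the same hairpin.
miR-34a: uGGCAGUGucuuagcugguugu
miR-31*: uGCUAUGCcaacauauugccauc
miR-31: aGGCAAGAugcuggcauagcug
miR-451: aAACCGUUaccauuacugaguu
miR-144: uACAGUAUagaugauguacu
miR-25: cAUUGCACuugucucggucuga
The miR-34a strand lies at chr4:150068473-150068494 on the plus strand and the 2 arms of miR-31 at chr4:88910577-88910599 and chr4:88910614-88910635 on the minus strand. The strands of miR-144 (chr11:78073047-78073066) and miR-451 (chr11:78073186-78073207) are neighbours on the plus strand of chromosome 11. miR-25 (chr5:138165332-138165353, minus strand) lies inside the protein-coding gene Mcm7, and no protein-coding gene in the RefSeq table spans the other 5.

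The highest rise was that of miR-34a, a miRNA transcribed under the control of p53 that lowers several regulators of the cell cycle. It stood at 6.65, 9.41, 6.35 and 6.42 in CTNNB1KO replicates 1 to 4, against 5.02, 4.73, 4.95 and 5.11 in WT. All 4 CTNNB1KO arrays lay above all 4 WT arrays, with replicate 2 far above the other 3. The means were 7.21 ± 1.47 in CTNNB1KO and 4.95 ± 0.16 in WT (SD, n = 4 each), a difference of 2.25 ± 0.48 (SE; 95% interval 1.24 to 3.27; adjusted p = 0.0283), or 4.77-fold. Without replicate 2, the array that lay far above the others, the difference and its SE were smaller, 1.52 ± 0.26 (adjusted p = 0.00276). The call ended when any of the 4 WT arrays was left out (highest adjusted p = 0.120) and with 4 of 11 other settings, among them a fit to the 8 control arrays alone (adjusted p = 0.0752). The 7 other measured strands of the miR-34 and miR-449 family were at or under the floor in both groups and differed by -0.15 to 0.24.

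miR-31* rose as well. Its values were 5.05, 5.01, 5.04 and 5.35 in CTNNB1KO and 4.23, 3.96, 4.26 and 3.80 in WT, where 2 of the 4 arrays were above the floor. The CTNNB1KO arrays lay within a narrow band, all above the WT arrays, replicate 2 included. The difference was 1.05 ± 0.17 (adjusted p = 0.00226), or 2.07-fold, and 1.09 without replicate 2 (adjusted p = 0.00276). This call held in each of the 16 fits that left out 1 array (adjusted p at most 0.0152) and in the 11 other settings. Since 2 WT arrays were at or under the floor, the WT level is in part background.

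The brighter arm, miR-31, is known in epithelia and counted among miRNAs linked to Wnt signalling. It was at 7.20, 6.17, 7.62 and 7.44 in CTNNB1KO, against 6.41, 6.34, 6.27 and 5.93 in WT. CTNNB1KO replicates 1, 3 and 4 lay above every WT array, while replicate 2 was inside the WT range, although the same array held the other arm at its group's level. The difference of 0.87 ± 0.26 did not pass (adjusted p = 0.211). Without replicate 2 it was 1.18 ± 0.19 (adjusted p = 0.00276), close to that of miR-31*.

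**Figure D1:**
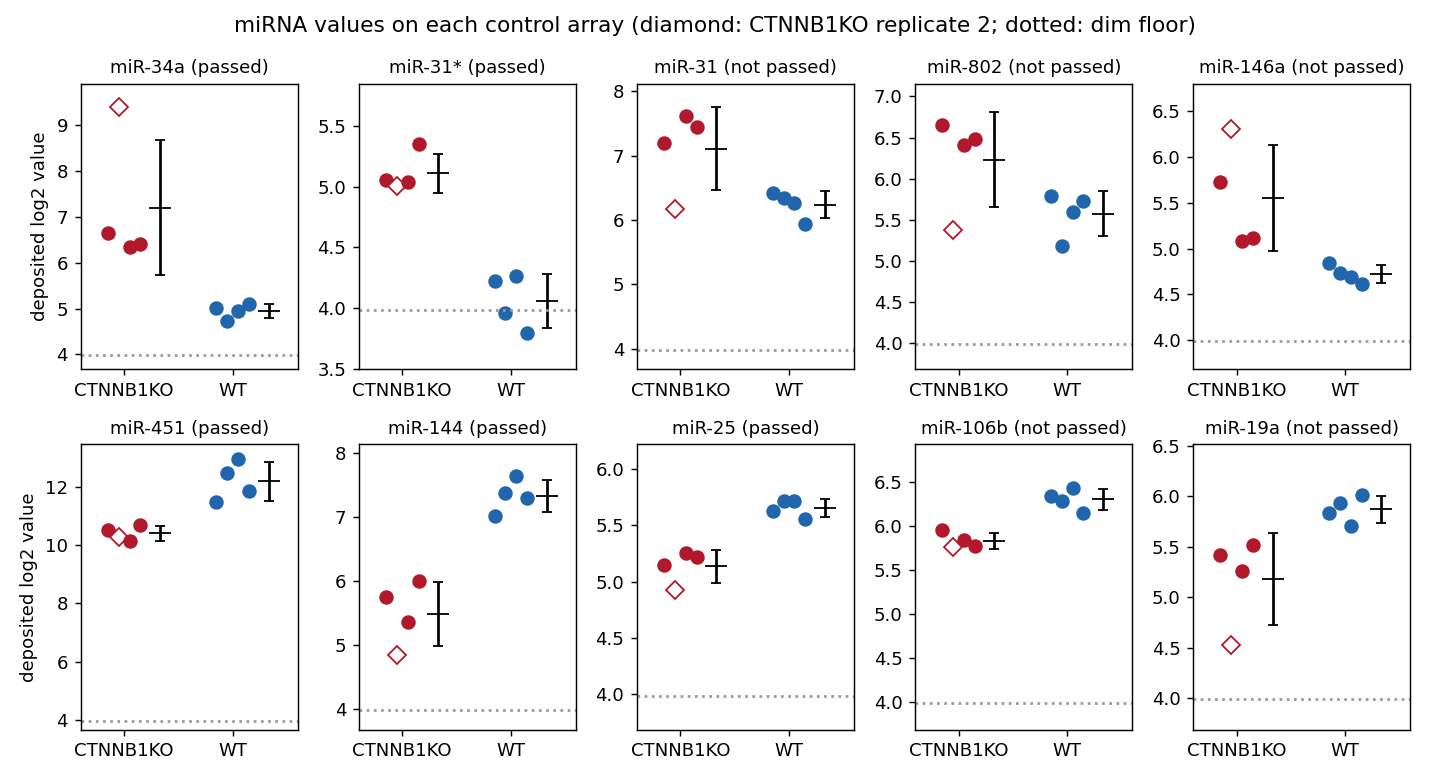
Deposited log2 values of 10 miRNAs on each of the 4 CTNNB1KO (left) and 4 WT (right) control arrays, with the mean and SD beside the points, an open diamond for CTNNB1KO replicate 2 and a dotted line at the dim floor of 3.98. The groups do not overlap for miR-34a, miR-31*, miR-146a and the 5 miRNAs of the lower row, and replicate 2 lies in the WT range for miR-31 and miR-802.

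The largest falls were in the miRNAs of red blood cells. miR-451, whose precursor is cut by Argonaute 2 instead of Dicer and which accumulates in erythrocytes, had 10.51, 10.26, 10.12 and 10.70 in CTNNB1KO, against 11.46, 12.46, 12.94 and 11.84 in WT. The highest CTNNB1KO array was below the lowest WT array, and the WT arrays were spread more widely (SD 0.25 in CTNNB1KO and 0.66 in WT). It fell by 1.78 ± 0.26 on the log2 scale (95% interval -2.33 to -1.23; adjusted p = 0.00128), and the level was 3.43-fold lower in CTNNB1KO. miR-144, which is cut from the same primary transcript under the erythroid factor GATA1, had 5.75, 4.85, 5.37 and 6.00 in CTNNB1KO and 7.02, 7.38, 7.64 and 7.30 in WT. It fell by 1.84 ± 0.32 (adjusted p = 0.00378), 3.58-fold.

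Neither call depended on a single array: across the 16 fits that each left out 1 array, the difference ranged from -2.02 to -1.52 for miR-451 and from -2.01 to -1.63 for miR-144, with adjusted p at most 0.00963 and 0.0223. Without CTNNB1KO replicate 2 the differences were -1.73 and -1.63. The third measured erythroid marker, miR-486, was under the floor on all 4 CTNNB1KO arrays (3.56 to 3.88) and at 4.14, 4.47, 4.81 and 3.94 in WT. Its WT mean was 1.28-fold above the floor, with WT replicate 4 itself under it, so the WT level is in part background. The difference did not pass (-0.62 ± 0.20, adjusted p = 0.217). Summed on the linear scale, the 3 erythroid markers reached 1172 to 1735 in CTNNB1KO and 2961 to 8088 in WT. In bulk liver, fewer red cells and less of these miRNAs per red cell cannot be told apart.

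The WT arrays with the most miR-451, replicates 2 and 3, were also the highest of their group for miR-144, miR-486, miR-25 and miR-16. The last is a ubiquitous miRNA that restrains the cell cycle. Other lower miRNAs did not follow this order in WT: miR-106b was highest on replicates 3 and 1, and miR-19a on replicates 4 and 2. In CTNNB1KO the order was not shared either: miR-451 and miR-144 were highest on replicate 4, miR-16 on replicate 1 and miR-25 on replicate 3. miR-16 had 8.32, 7.66, 8.21 and 8.11 in CTNNB1KO and 8.53, 8.77, 8.69 and 8.53 in WT. The groups did not overlap, yet the difference of -0.55 ± 0.14 did not pass (adjusted p = 0.0899). It did pass in 4 of 11 other settings and without CTNNB1KO replicate 1 (adjusted p = 0.0386). The miRNAs whose order is given here were chosen after their values were seen. What the difference in erythroid markers contributes to the lower values of other miRNAs was not tested.

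miR-25 was the only other miRNA to fall. It is made with miR-93 and miR-106b from an intron of Mcm7, a gene of the replicative helicase, and shares its seed with miR-92a. It had 5.15, 4.93, 5.25 and 5.21 in CTNNB1KO, against 5.63, 5.72, 5.72 and 5.56 in WT, a fall of 0.52 ± 0.12 (adjusted p = 0.0428), or 1.43-fold. The values of each group were close together and the groups did not overlap, but this was the weakest of the 5 calls. It was lost in 14 of the 16 fits that left out 1 array (highest adjusted p = 0.206) and in 5 of 11 other settings (highest 0.225). Without CTNNB1KO replicate 2 the difference was -0.45 (adjusted p = 0.0779). The summed erythroid level, given above, differed between the same groups in the same direction, and its part in the miR-25 difference was not tested.

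Its relatives above the floor had the same sign. These miRNAs come from the Mcm7 transcript and from the related transcripts that hold miR-17 and miR-106a, which promote proliferation when overexpressed. The strands above the floor carry 3 seeds, shown in capitals so that the shared and differing letters can be compared.
miR-92a: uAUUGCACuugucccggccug
miR-106b: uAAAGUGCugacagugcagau
miR-93: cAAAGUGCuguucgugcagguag
miR-20a: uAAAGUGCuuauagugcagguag
miR-20b: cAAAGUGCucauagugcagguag
miR-19a: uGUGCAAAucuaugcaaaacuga
miR-19b: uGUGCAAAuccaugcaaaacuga
miR-19a and miR-19b differ at 1 of 23 aligned positions, miR-20a and miR-20b at 2 of 23, and miR-25 and miR-92a at 3 of 21. Probes for strands this alike may each bind RNA of the other, so these differences may not be independent measurements.

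None of these 7 passed. miR-106b had 5.96, 5.76, 5.84 and 5.77 in CTNNB1KO and 6.34, 6.29, 6.42 and 6.14 in WT, a difference of -0.47 ± 0.13 (adjusted p = 0.126) that stayed at -0.44 without replicate 2 and passed in 4 of 11 other settings. miR-19a had 5.42, 4.52, 5.26 and 5.52 in CTNNB1KO, against 5.84, 5.93, 5.71 and 6.02 in WT (-0.69 ± 0.19, adjusted p = 0.126). Here replicate 2 was the lowest array by far, and without it the difference was -0.47.

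The others differed by -0.54 (miR-19b), -0.47 (miR-20a), -0.42 (miR-20b), -0.41 (miR-92a) and -0.33 (miR-93). For miR-19b replicate 2 stood at 7.29 while the other CTNNB1KO arrays were at 8.35 to 8.45 and WT at 8.48 to 8.87. For miR-20a it stood at 6.05, with 6.76 to 6.88 on the others and 6.97 to 7.33 in WT. Leaving it out reduced both differences, to -0.26 and -0.28, but the groups still did not overlap. The other 3 rested on the same array to a like degree and were -0.26 for miR-20b, -0.21 for miR-92a and -0.20 for miR-93 without it.

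Described as lists, 3 of the 5 measured strands of the Mcm7 cluster were above the floor, of which miR-25 fell, 4 strands did not pass and the median difference was -0.47 above the floor. Of the 15 measured strands of the miR-17 and miR-106a clusters, 5 were above the floor, none passed, all 5 were lower and the median was -0.47 (-0.26 without replicate 2). The median over all 123 miRNAs above the floor was 0.025, with 65 higher and 58 lower. No named member of these clusters above the floor changed sign under any alternative.

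**Figure D2:**
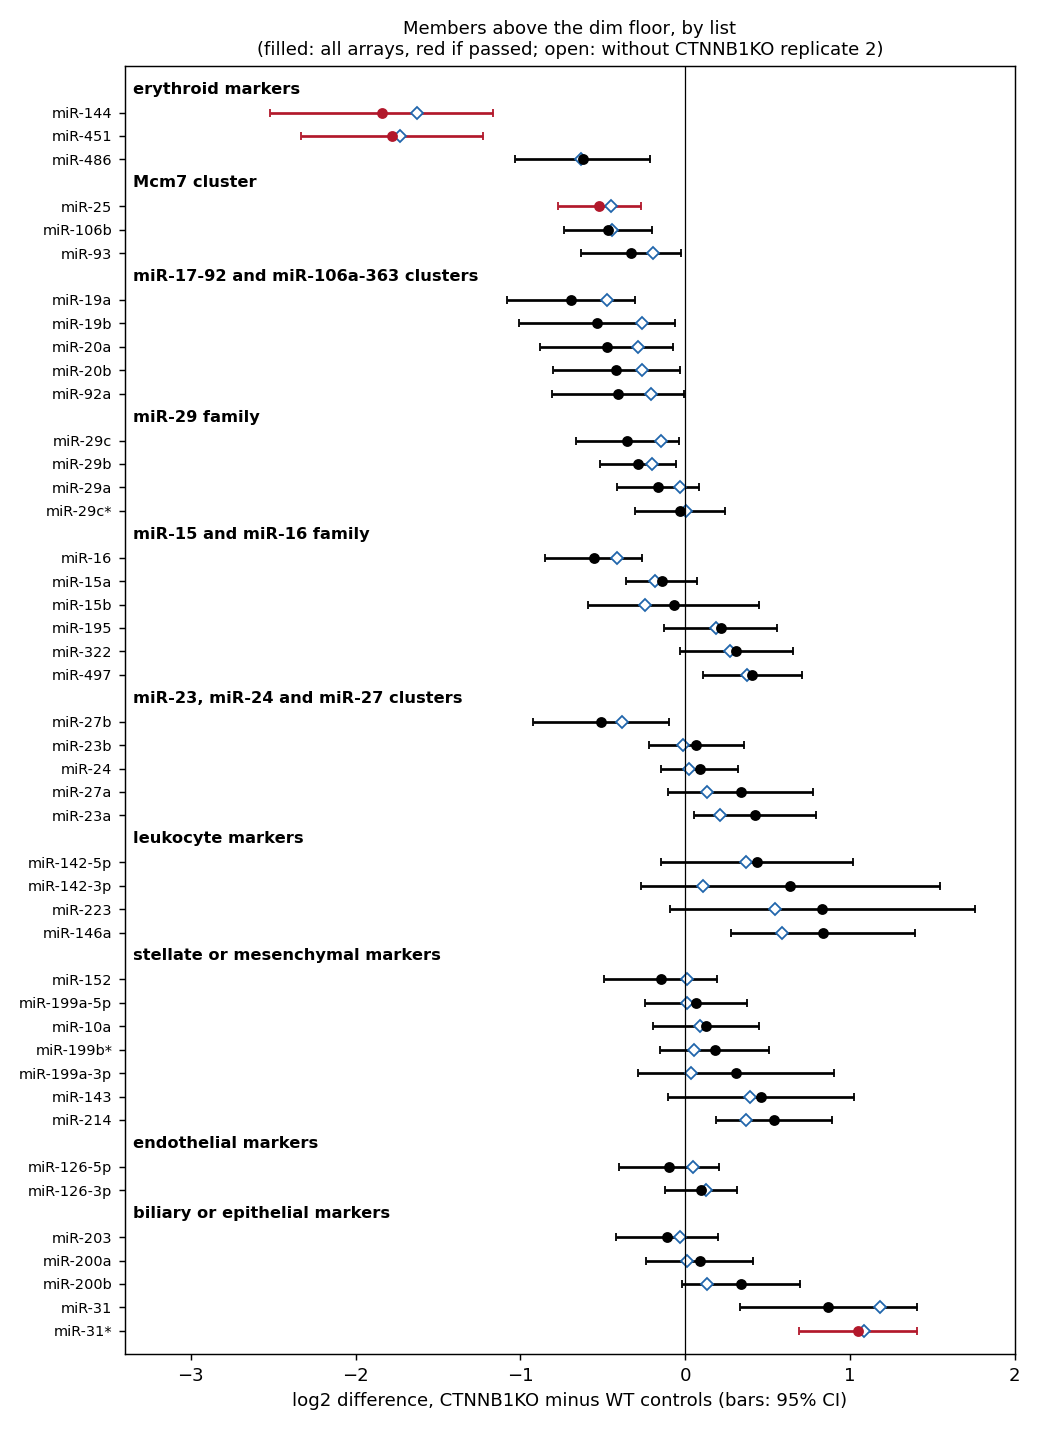
Log2 difference, CTNNB1KO minus WT controls, for the members above the floor of 10 lists, with 95% confidence intervals, filled points from all arrays (red where the adjusted p is under 0.05) and open diamonds from the fit without CTNNB1KO replicate 2. The erythroid, Mcm7, miR-17 cluster and miR-29 members all lie left of 0 with all arrays, and the 4 leukocyte members lie right of it.

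At a looser threshold, 49 of 611 miRNAs (8.02%) had an unadjusted p under 0.05, 21 higher and 28 lower. These were 31 of the 123 miRNAs above the floor (25.2%; 12 higher and 19 lower) and 18 of the 488 dim ones (3.69%). A miRNA could enter the 123 through its higher group alone, as did miR-301a, miR-214 and miR-486. Shares and list medians above the floor are therefore not independent of the differences. Above the floor, groups that did not overlap were found for 6 miRNAs higher in CTNNB1KO (4.88% of 123) and 15 lower (12.2%), against 14 (2.29%) and 21 (3.44%) over all 611. Leaving out any 1 control array gave 24 to 37 such miRNAs above the floor, where 3 arrays separate from 4 more easily. Without CTNNB1KO replicate 3 they were 20 higher and 17 lower. Without any other single control array the lower ones stayed more numerous. The share over all 611 was not counted in these settings. Differences of 1 or more in size were measured for 6 miRNAs above the floor, namely the passed miR-34a, miR-31*, miR-451 and miR-144 and, not passing, miR-1224 and miR-494.

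**Figure D3:**
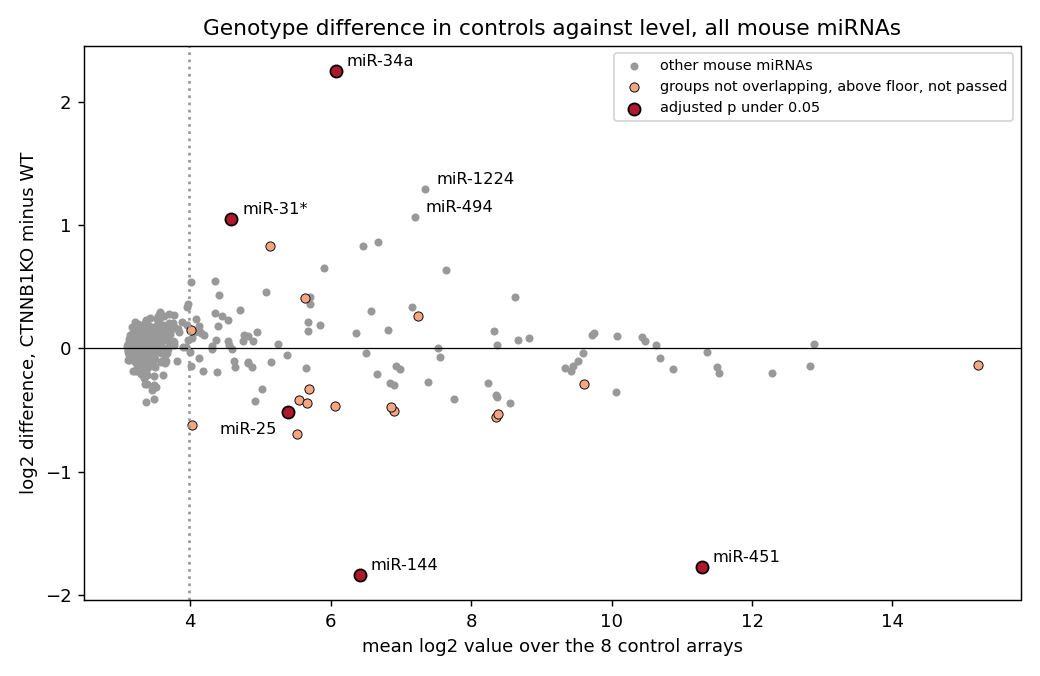
Log2 difference, CTNNB1KO minus WT controls, of the 611 mouse miRNAs against their mean log2 value over the 8 control arrays, with the dim floor dotted, the 5 passed miRNAs in dark red and those above the floor whose groups do not overlap in orange. Most miRNAs lie within 0.5 of 0, and the non-overlapping ones that did not pass lie mostly below 0.

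The differences of miR-1224 and miR-494 rested on 1 or 2 arrays. miR-1224, in the gene Vwa5b2, had 6.90, 8.59, 9.14 and 7.36 in CTNNB1KO and 6.45, 6.81, 7.11 and 6.44 in WT (1.30 ± 0.40, adjusted p = 0.217), so replicates 2 and 3 carried most of the difference. For miR-494, replicate 3 stood at 9.68, the other CTNNB1KO arrays at 7.03 to 7.16 and the WT arrays at 6.18 to 7.22. The difference of 1.07 became 0.42 without replicate 3.

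Of the 20 measured hepatocyte-abundant miRNAs, 16 were above the floor and none passed, with a median of -0.12 above the floor (-0.016 without replicate 2). miR-122 itself differed by -0.13, but its 4 WT values were identical to the printed digits at the top of the scale, so this is not taken as a measure of its level. miR-192 differed by -0.15 and miR-194 by -0.16 (0.0093 without replicate 2), liver miRNAs that neighbour each other on chromosome 19, and miR-148a by 0.025 (0.084 without it). miR-101b, known to restrain the methyltransferase Ezh2, differed by -0.45 (8.20, 7.98, 8.53 and 8.64 in CTNNB1KO and 8.63 to 8.91 in WT) without passing. miR-192 and miR-22 differed by -0.15 and -0.20, and by 0.11 and 0.21 when arrays were quantile-normalized again.

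Replicate 2 decided the result for miR-802, a hepatocyte miRNA that impairs glucose handling in obese mice. It had 6.66, 5.38, 6.41 and 6.48 in CTNNB1KO and 5.79, 5.18, 5.60 and 5.73 in WT. CTNNB1KO replicates 1, 3 and 4 lay above all WT arrays and replicate 2 lay among them. With all arrays the difference was 0.66 ± 0.23 (adjusted p = 0.354), and without replicate 2 it was 0.94 ± 0.17 (adjusted p = 0.00364).

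Without replicate 2, 6 of 611 miRNAs passed (0.982%), 4 higher and 2 lower. They were miR-34a, miR-31*, miR-451 and miR-144, shared with the full set, plus miR-31 and miR-802. miR-25 was the call that was lost. The array had been singled out by values that included those of miR-31 and miR-802. These added calls are therefore not independent of its removal.

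**Figure D4:**
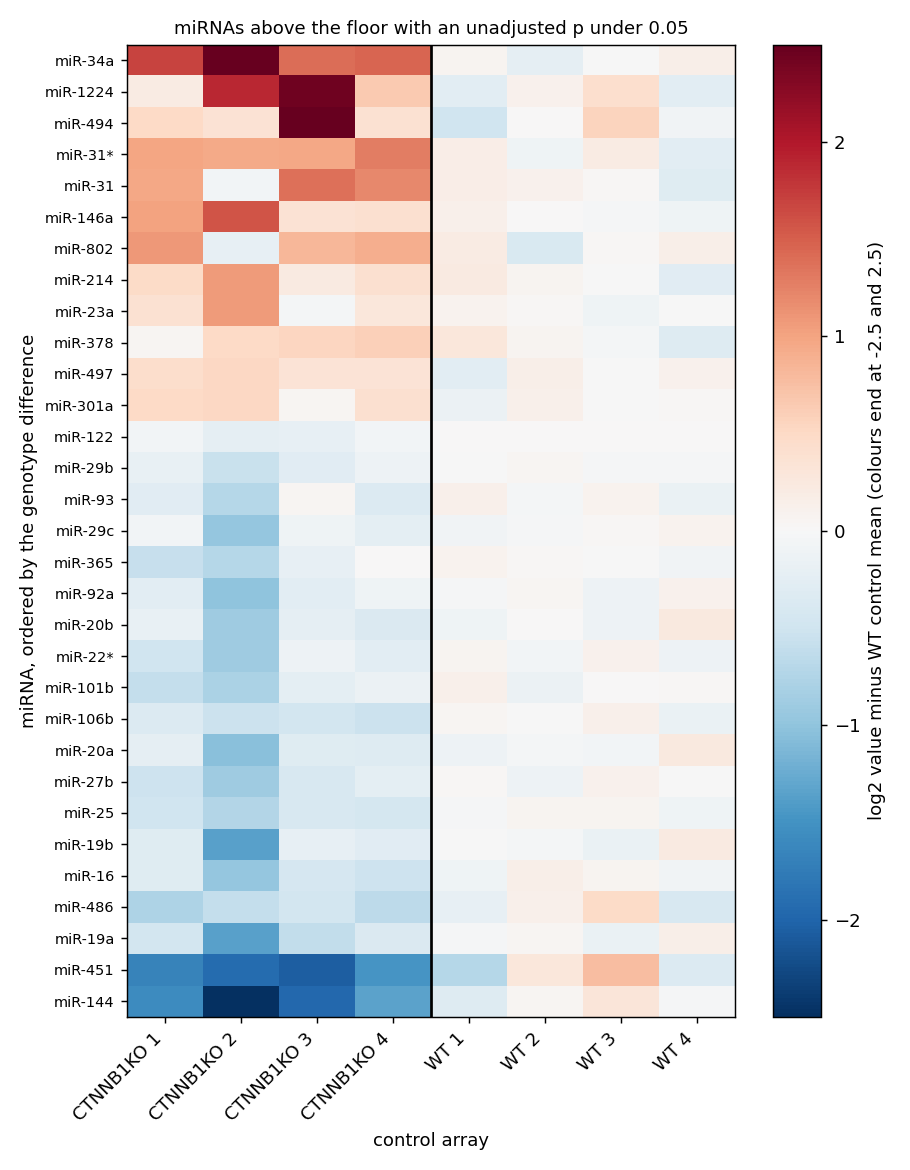
Log2 value minus the WT control mean on each control array (4 CTNNB1KO columns left, 4 WT columns right) for the 31 miRNAs above the floor with an unadjusted p under 0.05, ordered by the genotype difference, on a colour scale that ends at -2.5 and 2.5. CTNNB1KO replicate 2 is the lowest column for most of the lower miRNAs and is near 0 for miR-31 and miR-802, and replicate 3 holds the excess of miR-494.

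Among 17 miRNAs linked to Wnt signalling, 5 were above the floor, 1 rose (miR-31*) and 16 did not pass, with a median of 0.23 above the floor (0.13 without replicate 2). miR-375, a member of that list best known from pancreatic islets, was under the floor in both groups and differed by 0.14. The liver-tumour list of 16 miRNAs held 1 that rose (miR-34a), 1 that fell (miR-25) and 14 that did not pass. Its brightest member, miR-21, which is raised in many tumours and in inflammation, differed by -0.15 (95% interval -0.73 to 0.44; -0.49 without replicate 2), with 13.80 on CTNNB1KO replicate 2, 12.18 to 12.58 on the other CTNNB1KO arrays and 12.35 to 13.24 in WT. miR-221, another miRNA of liver tumours, differed by -0.051 (-0.088 without replicate 2).

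Families that share a seed did not always share a sign. Of the 123 miRNAs above the floor, 98 were matched to a RefSeq sequence, and 46 of these made up 15 groups with a shared seed. miR-27a and miR-27b, regulators of lipid metabolism from different chromosomes, show the contrast, as do miR-16 and miR-497.
miR-27a: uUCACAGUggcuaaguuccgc
miR-27b: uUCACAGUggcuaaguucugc
miR-16: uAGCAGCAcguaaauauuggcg
miR-497: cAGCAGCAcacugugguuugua
The first 2 differ at 1 of 21 aligned positions, yet miR-27a differed by 0.34 (7.44, 7.95, 6.79 and 7.14 in CTNNB1KO and 6.79 to 7.16 in WT) and miR-27b by -0.51 (6.65, 6.28, 6.76 and 6.92 in CTNNB1KO and 7.04 to 7.27 in WT). Without replicate 2 the signs were unchanged, but miR-27a was at 0.13 and miR-27b at -0.39. Only the miR-27b groups did not overlap, neither miRNA passed, and whether the 2 differ from each other was not tested. Probes for strands this alike may each bind RNA of the other, so these 2 differences may not be independent measurements either.

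The 6 members of the miR-15 and miR-16 family above the floor ranged from -0.55 (miR-16) to 0.41 (miR-497). miR-497 had 5.88, 5.94, 5.77 and 5.77 in CTNNB1KO and 5.17, 5.58, 5.43 and 5.54 in WT, so that its groups were apart in the direction opposite to those of miR-16. Neither passed. The 9 let-7 members, which limit growth factors and cell-cycle genes, ranged from -0.33 (miR-98) to 0.36 (let-7e, 0.15 without replicate 2), 4 higher and 5 lower, and let-7a, let-7f and let-7g changed sign when arrays were quantile-normalized again. None of the 16 measured let-7 strands passed.

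The miR-29 family, which represses collagen genes, had 4 members above the floor, all lower and none passing. miR-29b had 9.56, 9.20, 9.46 and 9.62 in CTNNB1KO and 9.72 to 9.80 in WT (-0.29), miR-29c differed by -0.35 (-0.15 without replicate 2) and miR-29a by -0.16 (-0.031 without it), the last changing sign when arrays were quantile-normalized again. miR-29c*, at -0.032 (0.0042 without replicate 2), lay at the floor. The median of the 4 was -0.23, and -0.089 without replicate 2.

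Leukocyte markers were higher on some CTNNB1KO arrays without passing. Of 12 measured, 4 were above the floor and none passed, with a median of 0.74 above the floor and 0.46 without replicate 2. miR-146a, induced by NF-kappaB in inflammation, had 5.72, 6.30, 5.08 and 5.11 in CTNNB1KO and 4.84, 4.74, 4.69 and 4.61 in WT (0.84, adjusted p = 0.232), and its groups did not overlap.

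miR-223, a miRNA of neutrophils and other myeloid cells, was at 7.83 and 7.73 on CTNNB1KO replicates 1 and 2, at 6.00 and 5.95 on replicates 3 and 4 and at 5.72 to 6.37 in WT. miR-142-3p, found across blood cell lineages, was at 8.04, 9.55, 6.90 and 7.38 in CTNNB1KO and 7.15 to 7.53 in WT. Replicates 1 and 2 were thus high for both markers, whereas replicates 3 and 4 lay in or near the WT range. The summed leukocyte level ran from 328 to 1170 in CTNNB1KO, the highest on replicate 2, and from 319 to 389 in WT. The same array carried the highest miR-34a, miR-21 and miR-140, and the part of leukocyte content in those values was not tested.

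Markers of other cell types gave 1 call. Of 14 stellate or mesenchymal markers 7 were above the floor and none passed, with a median of 0.18 above the floor (0.053 without replicate 2). miR-199a-3p was at 7.57 on CTNNB1KO replicate 2, at 6.06 to 6.76 on the other CTNNB1KO arrays and at 6.29 to 6.52 in WT. Both strands of the endothelial hairpin were nearly level, at 0.098 for miR-126-3p and -0.099 for miR-126-5p (0.12 and 0.048 without replicate 2). Among 17 markers of bile ducts and other epithelia, only miR-31* passed. The miR-200 members that mark bile duct epithelium, miR-200a and miR-200b, differed by 0.088 and 0.34 (0.013 and 0.13 without replicate 2), near the floor. miR-200b was under the floor on every WT array (3.61 to 3.90), so its WT level is background. In CTNNB1KO it was at 4.75 on replicate 2 and at 3.81 to 4.06 on the other arrays. No neural (0 of 9) or pancreatic (0 of 6) marker passed, and the only ones above the floor were miR-219 and miR-148a, which is also abundant in liver. Of the families not described so far, none of 10 miR-30 strands, 9 strands of the families led by miR-99 and miR-125 or 9 of the miR-23, miR-24 and miR-27 clusters passed. Nor did any of 13 metabolic miRNAs, 11 of them above the floor with a median of 0.13.

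The same genotypes were also compared under phenobarbital, on 8 other arrays, where 23 of 611 miRNAs passed (3.76%). Of those arrays, CTNNB1KO phenobarbital replicates 1 and 2 carried striated muscle miRNAs: miR-1 was at 8.17 and 6.03 on them and at 3.09 to 3.86 on the other 14 arrays of the study. Without these 2 arrays (a setting added once the data had been seen) 40 miRNAs passed (6.55%), 17 of them shared, so results under phenobarbital are given both ways. All 5 miRNAs that passed in controls had the same sign there with and without the 2 arrays. miR-34a differed by 3.59 under phenobarbital and 2.25 in controls, and miR-144 by -1.35 and -1.84. Both passed under phenobarbital, also without the 2 arrays (4.15 and -2.07). miR-31* (0.77 under phenobarbital and 1.05 in controls) passed with all arrays (adjusted p = 0.00962) and not without the 2 (0.48, adjusted p = 0.130). miR-451 (-0.86 and -1.78) did not pass with all arrays (adjusted p = 0.0829) and did without the 2 (-1.13, adjusted p = 0.0312). miR-25 (-0.37 and -0.52) passed in neither fit (adjusted p = 0.0982 and 0.281).

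Of the 15 lower and 6 higher miRNAs above the floor whose control groups did not overlap, 13 and 5 kept their sign under phenobarbital (13 and 4 without the 2 arrays), against 82 (84) of all 123 above the floor. miR-106b (-0.045 under phenobarbital and -0.47 in controls) and miR-16 (-0.049 and -0.55) were close to 0 with the drug. Without the 2 arrays their values under phenobarbital were 0.024 and -0.060. The difference between the 2 genotype effects was tested as an interaction. It passed for 7 of 611 miRNAs (1.15%), none of them above the floor in controls and none named here, the smallest adjusted p of a named miRNA being 0.127. Without the 2 arrays it passed for 5 (0.818%), 4 of them shared. The fifth was the leukocyte miRNA miR-142-5p, whose genotype difference was then 1.73 under phenobarbital and 0.44 in controls (interaction 1.29 ± 0.29, adjusted p = 0.0463; 0.740 with all arrays).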

How the data were processed

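Per the labels' protocols, 100 ng of liver RNA per array was labelled for single-channel hybridisation with an Agilent kit. The table deposited by the authors holds log2 values for each feature and array, made with RMA per the submitters' processing notes, which also name limma. Tool versions and the background step are not given there, and scanner intensities were not used here, so precision is limited by the number of arrays and slide could not be a block.

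From these values, group means of 611 mouse miRNAs were estimated over 16 arrays in limma 3.58.1 under R 4.3.3 (eBayes with intensity trend, 12 residual degrees of freedom). p-values are two-sided and were adjusted by Benjamini-Hochberg over the 611 at a threshold of 0.05. The fit was also run on simulated normal data in which all groups had the same SD for a given miRNA. No simulated array stood apart, so this does not cover an array such as CTNNB1KO replicate 2. Named miRNAs were those that passed, the 12 smallest p-values per direction above the floor, up to 4 members of each of 22 lists, the 10 brightest in WT controls and a few of prior interest, 68 in all. Others are named to complete a cluster, a seed family or the account of an array, and were chosen after their values were seen. Members and lists were chosen with earlier results of these data known. Array names, in which an asterisk marks the minor arm, were matched by hand to RefSeq arms, and 98 of the 123 above the floor matched. Alternatives were other sets of arrays, moderation, weights, scaling, floors and a replicate block.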

Additional observations from a re-analysis of the deposited data

Results flagged for a closer look

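Dixon's criterion for 4 values was applied to 135 groups of 4 control arrays, 1 for each genotype and named miRNA tested. In 9 groups an array lay far enough from the other 3 to pass. Chance passes about 1 group in 20, so 9 of 135 is close to the count that chance would give. In 4 of the 9 the array was CTNNB1KO replicate 2. It was high for miR-34a (9.41, the others 6.35 to 6.65) and low for miR-20a (6.05, the others 6.76 to 6.88), miR-19b (7.29, the others 8.35 to 8.45) and miR-107 (7.66, the others 8.23 to 8.28). CTNNB1KO replicate 3 was high for miR-494 (9.68, the others 7.03 to 7.16). CTNNB1KO replicate 4 was high for miR-31* (5.35, the others 5.01 to 5.05). In WT, replicate 2 was high for miR-15a (9.67, the others 9.46 to 9.48), replicate 1 for miR-24 (8.80, the others at 8.78) and replicate 4 for miR-29c* (4.32, the others 3.87 to 3.93). The values of miR-31*, miR-15a, miR-24 and miR-29c* lay within 0.5 of the rest of their group.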

How the results depend on the processing

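The calls of miR-451, miR-144 and miR-31* held in all 16 fits that left out 1 array and in the 11 other settings. Against 5 miRNAs passing, 3 passed in a fit to the 8 control arrays and after arrays were quantile-normalized again. There were 9 with array weights and 8 among miRNAs above the floor only, and 3 to 7 when 1 array was left out (3 without any single WT control array). The setting above the floor only kept miRNAs with a mean above it in at least 1 of the 4 groups, phenobarbital groups included. Gains among named miRNAs were miR-106b (array weights, no intensity trend, no moderation, above the floor only), miR-16 (array weights, no trend, robust moderation, above the floor only, without CTNNB1KO replicate 1), miR-31 (array weights, without CTNNB1KO replicate 2), miR-486 (array weights), miR-19a (above the floor only), miR-1224 (without CTNNB1KO replicate 1), miR-301a (without replicate 3) and miR-802 (without replicate 2). miR-34a was lost in 4 settings: the 8 control arrays (adjusted p = 0.0752), robust moderation (0.147), no moderation (0.195) and quantile normalization (0.0859). For the interaction, 20 passed with array weights and 2 without moderation, against 7, and 5 to 13 when 1 array was left out (13 without WT phenobarbital replicate 1). Non-overlapping miRNAs above the floor numbered 35 with the floor at the median viral mean, against 21. They numbered 24 to 37 when 1 control array was left out (37 without CTNNB1KO replicate 3), where smaller groups separate more easily.

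With replicate numbers as a block, 4 passed and miR-25 did not (adjusted p = 0.112), and no other call of the 5 changed. The labels do not say that a number marks a shared animal, litter or day. Deviations of same-numbered control arrays correlated at 0.11, 0.17, 0.43 and 0.077, not all over 0.1, and 3 of the 4 numbers were best matched by their own number, a hint from the data that falls short of showing a pairing. Signs turned with array weights for miR-29c* (0.082), after centring on the 75th percentile for miR-720 (-0.001169) and miR-148a (-0.013), and after quantile normalization for miR-192 (0.11), let-7f (0.082), miR-22 (0.21), miR-29a (0.040), let-7g (0.18) and let-7a (0.28). When 1 array was left out, differences ranged from -0.11 to 0.016 for miR-221, -0.28 to 0.0093 for miR-194, -0.19 to 0.048 for miR-126-5p, -0.098 to 0.072 for miR-29c*, -0.49 to 0.047 for miR-21, -0.021 to 0.13 for miR-720, -0.11 to 0.083 for let-7a and -0.020 to 0.084 for miR-148a. The cause was not tested. No scaling moved the median of all miRNAs by over 0.1. With 4 arrays a group and 488 of 611 miRNAs near background, small differences and dim miRNAs could not be resolved.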
